A study of Solanum lycopersicum and Solanum pimpinellifolium with 30 samples.

Results

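RIN, TDR4, AG1 and LeSEP3 are 4 MADS-box transcription factor genes of tomato, and their transcript levels in ripe red fruit are described here across 10 cultivars. They were found by their symbols and synonyms in the annotation of a one-colour Affymetrix tomato GeneChip, and each was read by 1 probe set. They are 4 of 628 described genes, that is, genes whose symbol is not a placeholder, and of 10038 tested probe sets. The fruit came from LA1589, a line of the wild currant tomato Solanum pimpinellifolium, and from 9 Andean landraces of Solanum lycopersicum, numbered 3806, 3815, 3836, 3842, 549, 557, 560, 571 and 572. All were grown in the same field trial with plots of 6 plants and 18 plants per cultivar, and were picked at the mature red stage. The pericarp was kept after the outer skin, locule tissue and seeds had been taken off. Each cultivar had 3 arrays, labelled as biological replicates. Which plot or which of the harvest days an array stands for is not given, so p-values measure the spread between these arrays. The wild species is represented by 1 accession.

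MADS-box proteins act in complexes of several family members and bind short AT-rich sequences called CArG boxes. In flowers such complexes set the identity of the organs, and in tomato fruit some of them control ripening. RIN, a SEPALLATA-class factor, is needed for normal ripening and binds the promoters of genes for ethylene synthesis, cell wall softening, carotenoids and aroma. TDR4, also named FUL1, is a FRUITFULL homologue that forms complexes with RIN. AG1, also named TAG1, is the AGAMOUS homologue that specifies stamens and carpels. LeSEP3, also named TM5, is a SEPALLATA-class gene of floral organ identity.

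In the tomato assembly SLM_r2.1 RIN lies on chromosome 5 from 5559278 to 5564802, and LeSEP3 on the same chromosome from 12339712 to 12346156. AG1 lies on chromosome 2 from 57298432 to 57304261. The gene identifier of the TDR4 probe set was not in that assembly's gene table. The synonym TDR4 stands there for FUL1 on chromosome 6, from 45617310 to 45629424. The name of the TDR4 probe set carries the suffix that Affymetrix gives to probes shared by more than 1 transcript, so its signal may include a related transcript. Probe sequences were not used here, and they were not checked against the LA1589 genome. In bulk pericarp without the outer skin, fewer cells of a type and less RNA per cell cannot be told apart.

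Levels are log2 signals after quantile normalisation between arrays, and differences are on the same log2 scale. Signals of different probe sets cannot be ranked against each other, so each gene is compared with itself across cultivars. The background of an array was the percentile 95 of its 63 probe sets for foreign reporter sequences, and it ran from 0.37 to 2.41 between arrays. All 4 genes lay above it on 30 of 30 arrays, AG1 by at least 3.34 and RIN by at least 5.82. Of the fixed ripe fruit markers, PG2, Psy1, E8 and EXP1 were above background on every array, and TBG4 was not. The seed markers MAN2 and TAS14 stayed at or below 1.51 and the epidermis markers at or below 3.99, and none of these was above background on every array. The measured flower organ markers were AG1, TDR6 and TPI. Of the stamen and petal identity genes, TDR6 was above background on 25 of 30 arrays, while TPI was at background on 29 of 30. The mean of the spiked bacterial controls, as deposited, was lowest in 571 (8.29 ± 0.23) and highest in 557 (10.37 ± 0.25), with SD over 3 arrays, and was 10.28 ± 0.21 in 572 and 9.68 ± 0.38 in LA1589.

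**Figure D1:**
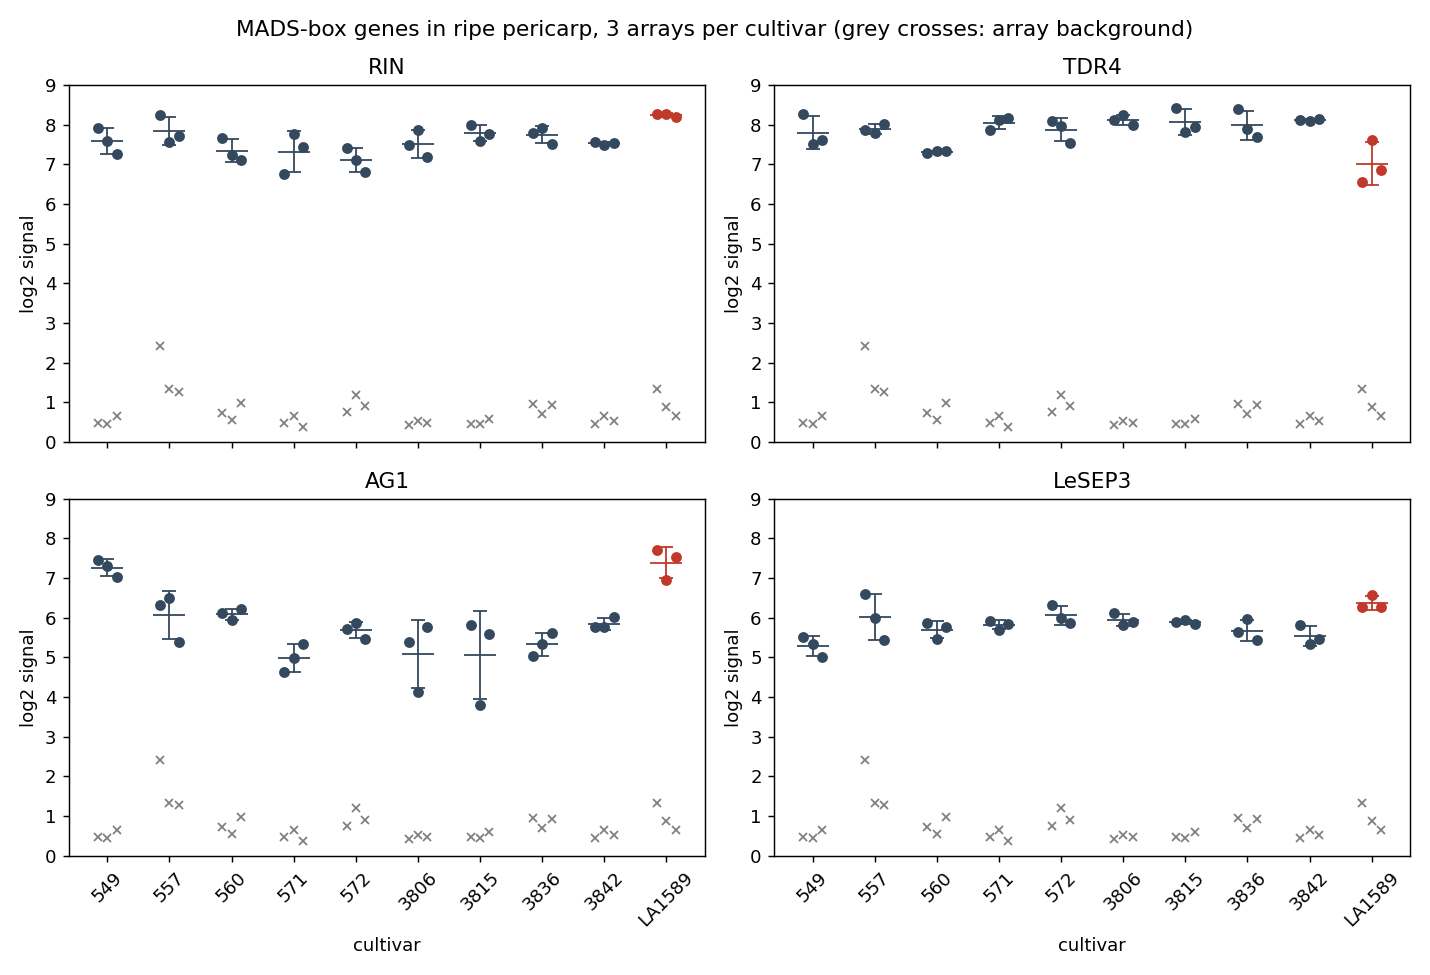
Log2 signal (y axis) of RIN, TDR4, AG1 and LeSEP3 on each of the 3 arrays of each cultivar (x axis), landraces in dark blue and LA1589 in red, with the mean as a horizontal line and the SD as bars. Grey crosses mark the background of each array, at most 2.41. LA1589 has the highest mean for RIN, AG1 and LeSEP3 and the lowest for TDR4, and 549 is beside LA1589 for AG1.

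The first comparison asks how the wild accession differs from the landraces. RIN, AG1 and LeSEP3 were higher in LA1589 and TDR4 was lower. All 4 passed the limma test at an adjusted p of 0.05 over all probe sets. In the same test 15.5% of all probe sets passed, 8.58% as higher and 6.96% as lower. In this test each landrace mean had equal weight, and the error is the spread between arrays of the same cultivar.

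RIN read 8.27, 8.27 and 8.18 on the 3 LA1589 arrays. On the 27 landrace arrays it ran from 6.76 to 8.23 with a median of 7.55. Only 1 landrace array, replicate 1 of 557, lay above the lowest LA1589 array. In the values as deposited it lay below that array (8.06 against 8.09), and its background of 2.41 was the highest of all arrays. The difference was 0.71 ± 0.18 (log2, SE, 3 against 27 arrays; limma adjusted p = 0.00795), which is 1.64-fold. The LA1589 arrays differed little among themselves (SD 0.05), whereas the SD within a landrace reached 0.51 in 571.

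TDR4 went the other way. It read 6.56, 7.62 and 6.85 in LA1589, against 7.29 to 8.43 in the landrace arrays with a median of 7.98. Replicates 1 and 3 of LA1589 lay below every landrace array, while 6 landrace arrays lay below its replicate 2. The difference was -0.90 ± 0.18 (adjusted p = 0.000933), or 1.87-fold lower. Without replicate 2 of LA1589 it was -1.20.

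AG1 had the widest difference of the 4. It read 7.70, 6.94 and 7.53 in LA1589 and from 3.80 to 7.46 in the landraces, with a median of 5.76. The only landrace arrays that reached the LA1589 values were the 3 of landrace 549. The difference was 1.68 ± 0.30 (adjusted p = 0.000384), or 3.20-fold.

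LeSEP3 read 6.28, 6.58 and 6.26 in LA1589 and from 5.01 to 6.61 in the landraces, with a median of 5.84. Of the landrace arrays 2 lay above the lowest LA1589 array, replicate 1 of 557 and replicate 1 of 572. The difference was 0.60 ± 0.17 (adjusted p = 0.0134), or 1.52-fold. Without replicate 2 of LA1589 it was 0.50 and did not pass (adjusted p = 0.0957).

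These tests do not count the spread between landraces as error. With 1 mean per cultivar, where that spread is the error, the adjusted p was 0.295 for RIN, 0.175 for TDR4, 0.389 for AG1 and 0.421 for LeSEP3, and with cultivar as a random effect it was 0.202, 0.0694, 0.119 and 0.277. At an unadjusted p under 0.05 all 4 passed in both of these fits.

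**Figure D2:**
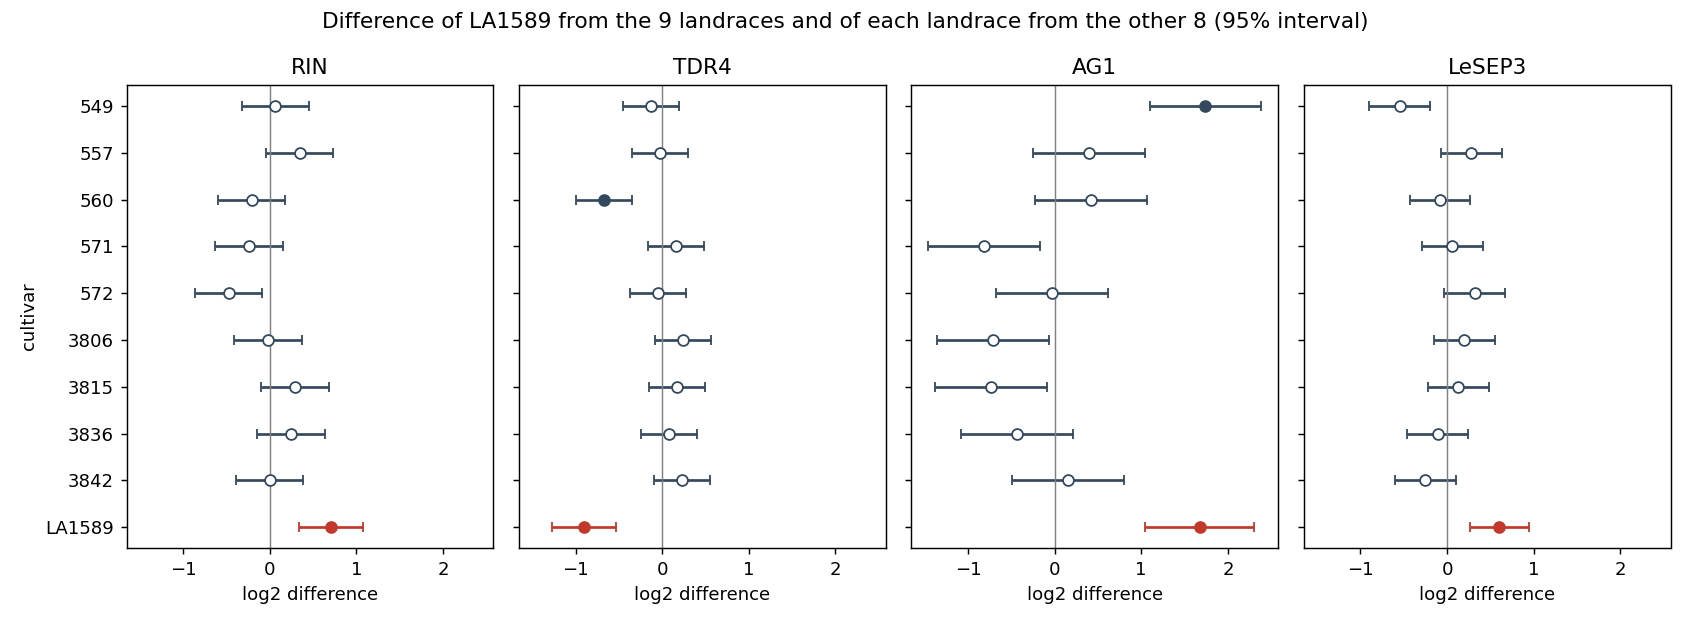
Log2 difference (x axis, 95% interval of the limma fit) of LA1589 from the mean of the 9 landraces (red) and of each landrace from the mean of the other 8 (dark blue), for each cultivar (y axis). Filled points passed at an adjusted p of 0.05. Beside LA1589 only AG1 in 549 (1.74) and TDR4 in 560 (-0.67) are filled.

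The second comparison asks whether the landraces differ among themselves. AG1 differed among the 9 landraces and the other three genes did not pass. The moderated F test gave an adjusted p of 0.00246 for AG1, 0.0570 for TDR4, 0.104 for LeSEP3 and 0.208 for RIN. With the replicate number as a block TDR4 (adjusted p = 0.0436) and LeSEP3 (0.0390) passed too. Without landrace 560 the range of TDR4 was 0.32 (0.816), and without 549 that of LeSEP3 was 0.51 (0.453). Of all probe sets 39.1% passed this test, so 1 of the 4 genes is no more than the background share. The range of landrace means was 2.27 for AG1 (4.83-fold), 0.80 for TDR4, 0.77 for LeSEP3 and 0.73 for RIN, beside a median of 0.89 over all probe sets.

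AG1 was high in 1 landrace. It read 7.46, 7.31 and 7.03 in 549, and these arrays lay above every other landrace array, as in 0.179% of all probe sets. It read 6.12, 5.94 and 6.22 in 560, and 6.32, 6.51 and 5.39 in 557. In 3842 it read 5.78, 5.76 and 6.03, in 572 5.73, 5.86 and 5.47, and in 3836 5.05, 5.33 and 5.62. The lowest means were those of 571 (4.64, 4.996 and 5.35), 3815 (5.83, 3.80 and 5.58) and 3806 (5.38, 4.12 and 5.76). In 3815 and 3806 a single array, replicate 2 in each, lay more than 1 below the other two, and their SDs of 1.11 and 0.86 were the widest of any member.

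Landrace 549 exceeded the mean of the other 8 landraces in AG1 by 1.74 ± 0.31 (log2, SE; limma adjusted p = 0.00505), or 3.34-fold. In this contrast 1.5% of all probe sets passed. Without replicate 1 of 549 the difference was 1.65 and the adjusted p 0.0593. Without landrace 549 the range of AG1 fell to 1.10, and the F test no longer passed (adjusted p = 0.141). Between LA1589 and 549 the AG1 difference was 0.13 (95% interval of 549 minus LA1589 from -0.97 to 0.71; adjusted p = 0.911), an interval that still holds differences of this size in either direction.

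TDR4 was low in 1 landrace. It read 7.29, 7.33 and 7.33 in 560, an SD of 0.02, and all of these lay below every other landrace array, as in 2.07% of all probe sets. Landrace 560 lay below the mean of the other 8 by 0.67 ± 0.16 (a difference of -0.67; adjusted p = 0.00299), or 1.59-fold. In this contrast 10.8% of all probe sets passed as lower and 11.8% as higher. The F test of TDR4 across the landraces missed the threshold by little and its outcome depended on the settings. Over the 9 such contrasts together, 8.91% of all tests passed.

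For RIN and LeSEP3 0 of 9 landraces passed against the other 8 in limma, and 1 of 9 had an unadjusted p under 0.05 for each gene. For RIN this was 572, with a difference of -0.47 (95% interval from -0.86 to -0.08; limma adjusted p = 0.0984). Its arrays lay below those of 557, the landrace with the highest mean. For LeSEP3 it was 549, with a difference of -0.55 (95% interval from -0.90 to -0.20; limma adjusted p = 0.127). The arrays of 572, which had the highest landrace mean, lay above all arrays of 549.

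The order of the levels showed few steps. For RIN the arrays read, after LA1589 (8.24 ± 0.05, SD), 8.23, 7.55 and 7.72 in 557 (mean 7.84 ± 0.35), 7.99, 7.60 and 7.77 in 3815 (mean 7.79 ± 0.20) and 7.80, 7.92 and 7.51 in 3836 (mean 7.74 ± 0.21). They read 7.92, 7.60 and 7.25 in 549 (mean 7.59 ± 0.33), 7.56, 7.496 and 7.53 in 3842 (mean 7.53 ± 0.03) and 7.49, 7.87 and 7.18 in 3806 (mean 7.51 ± 0.34). At the low end they read 7.67, 7.24 and 7.12 in 560 (mean 7.34 ± 0.29), 6.76, 7.75 and 7.44 in 571 (mean 7.32 ± 0.51) and 7.41, 7.11 and 6.81 in 572 (mean 7.11 ± 0.30). After normalisation the arrays of each cultivar overlapped with those of its neighbour in this order, and replicate 1 of 571 was the lowest of all 30 arrays. In the values as deposited LA1589 and 557 did not overlap.

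For TDR4 the order ended with LA1589. The arrays read 8.13, 8.25 and 7.99 in 3806 (mean 8.12 ± 0.13), 8.12, 8.09 and 8.14 in 3842 (mean 8.12 ± 0.02) and 8.43, 7.81 and 7.94 in 3815 (mean 8.06 ± 0.33). They read 7.86, 8.12 and 8.17 in 571 (mean 8.05 ± 0.17), 8.39, 7.88 and 7.68 in 3836 (mean 7.98 ± 0.37) and 7.86, 7.78 and 8.02 in 557 (mean 7.89 ± 0.12). Lower still they read 8.10, 7.98 and 7.54 in 572 (mean 7.87 ± 0.29), 8.27, 7.52 and 7.60 in 549 (mean 7.80 ± 0.41) and 7.29, 7.33 and 7.33 in 560 (mean 7.32 ± 0.02). Then came LA1589 with a mean of 7.01 ± 0.55. Landrace 560 was the only landrace whose arrays overlapped with those of no other landrace.

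LeSEP3 was highest in LA1589 (6.38 ± 0.18). After it the arrays read 6.31, 6.002 and 5.86 in 572 (mean 6.06 ± 0.23), 6.61, 5.999 and 5.45 in 557 (mean 6.02 ± 0.58) and 6.12, 5.83 and 5.90 in 3806 (mean 5.95 ± 0.15). They read 5.89, 5.93 and 5.84 in 3815 (mean 5.89 ± 0.05), 5.93, 5.70 and 5.85 in 571 (mean 5.83 ± 0.12) and 5.88, 5.46 and 5.77 in 560 (mean 5.70 ± 0.22). At the low end they read 5.63, 5.96 and 5.43 in 3836 (mean 5.68 ± 0.27), 5.83, 5.35 and 5.47 in 3842 (mean 5.55 ± 0.25) and 5.51, 5.34 and 5.01 in 549 (mean 5.29 ± 0.26). Landrace 557 held both the highest landrace array and 1 of the lower ones, so its arrays spanned those of most other landraces.

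For AG1 the means ran from LA1589 (7.39 ± 0.40) and 549 (7.26 ± 0.22) through 560 (6.09 ± 0.14), 557 (6.07 ± 0.60), 3842 (5.85 ± 0.15), 572 (5.69 ± 0.20), 3836 (5.33 ± 0.29), 3806 (5.09 ± 0.86) and 3815 (5.07 ± 1.11) to 571 (4.99 ± 0.35), each an SD over 3 arrays. In none of the 4 orders did neighbouring cultivars pass in limma after adjustment over all probe sets. The lowest adjusted p between neighbours was 0.0787, for the AG1 step of 1.17 from 549 to 560, whose 95% interval ran from 0.33 to 2.01 and whose arrays did not overlap.

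Cultivars farther apart in these orders did differ. Of the 45 pairs of cultivars 13 passed for AG1, 10 for TDR4, 6 for LeSEP3 and 4 for RIN. Over all probe sets the median was 2 and the mean 4.23, so RIN was no higher than the mean. Over all pairs and probe sets 9.4% of tests passed, and for single pairs the share ran from 0.0299% to 22%. LA1589 was in 8 of the 13 pairs for AG1, the exception among its 9 pairs being 549, and in 8 of the 10 for TDR4, where the exception was 560. It was in 4 of the 6 pairs for LeSEP3 (against 549, 560, 3836 and 3842) and in all 4 for RIN (against 3806, 560, 571 and 572). Among landraces alone, AG1 passed for 549 against 3806, 3815, 3836, 571 and 572. TDR4 passed for 560 against 3806 and 3815, and LeSEP3 for 549 against 557 and 572. RIN passed for 0 of 36 pairs of landraces in limma, where 4 had an unadjusted p under 0.05, with the widest difference between 557 and 572 at 0.73 (95% interval from 0.23 to 1.22; adjusted p = 0.0533).

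The 4 genes did not follow 1 common order. Across the 10 cultivar means Pearson's r was -0.73 for TDR4 with AG1, 0.45 for RIN with AG1, 0.37 for RIN with LeSEP3, -0.41 for RIN with TDR4, -0.40 for TDR4 with LeSEP3 and -0.0036 for AG1 with LeSEP3. Over the 9 landraces it was -0.51, 0.04, -0.14, 0.28, 0.18 and -0.64 in the same order of pairs. These values describe 10 or 9 points that share their arrays, and their signs changed for 3 of the 6 pairs when LA1589 was left out. With the mean of the spiked controls, r over the 10 cultivars was 0.28 for RIN, -0.22 for TDR4, 0.21 for AG1 and 0.50 for LeSEP3. With those controls as a covariate in the fit the 4 genes passed in LA1589 as before.

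The array names 6 further MADS-box genes. They are TAGL1, a second gene of the AGAMOUS clade that is needed for ripening, MADS1, a SEPALLATA-class gene, AGL11 of the ovule identity clade, the stamen and petal identity genes TDR6 (TM6) and TPI, and TDR8. In LA1589 0 of the 6 passed in limma, beside 15.5% of all probe sets, and 1 of the 6 had an unadjusted p under 0.05. That was AGL11 (adjusted p = 0.0516), which lay at background on most arrays in 7 of the 9 landraces. Among the landraces TAGL1 passed alone of the 6 in the main fit (F test adjusted p = 0.00123), beside 39.1% of all probe sets. It read 5.05, 4.07 and 4.31 in 572, below every array of the other landraces, as in 0.877% of all probe sets, and those had a mean of 5.75. The difference of 572 from the other 8 was -1.27 ± 0.18 (adjusted p = 4.62e-05), or 2.41-fold lower, in a contrast in which 14% of probe sets passed. Without landrace 572 its range was 0.38 and its F test adjusted p 0.684. With the spiked controls, which were high in 572, as a covariate the difference was -1.07 (adjusted p = 0.0619). TDR6 was not above background on any array of 557, so no difference is given for that landrace. MADS1 ran from 2.91 ± 0.99 in 549 to 4.10 ± 0.46 in 560 and did not pass in the main fit (F test adjusted p = 0.104). With array weights MADS1 (F test adjusted p = 0.0165), TDR6 (0.0102), TDR8 (0.0138) and AGL11 (0.0105) passed as well. MADS1 also passed without landrace 549 (0.0404), and TDR6 without landrace 572 (0.0075). The cultivar with the lowest mean was 572 for TAGL1 and RIN, 571 for AG1, 549 for LeSEP3 and LA1589 for TDR4.

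**Figure D3:**
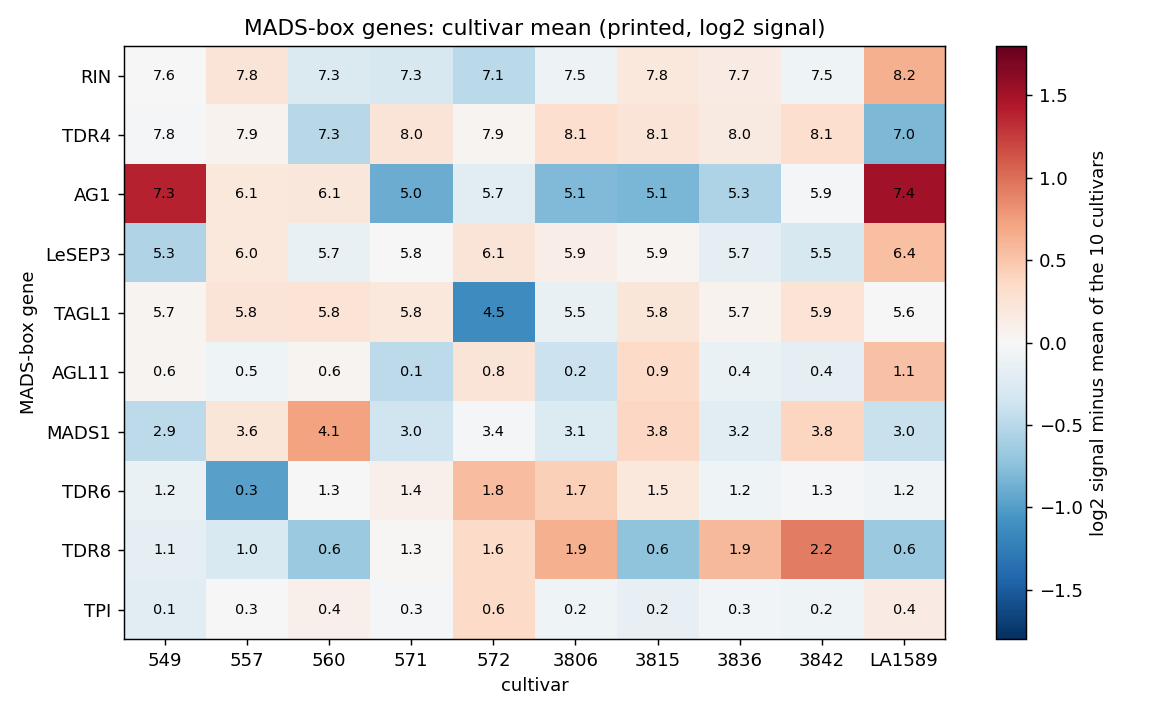
Cultivar means (printed numbers, log2 signal, n = 3 arrays) of the 10 named MADS-box genes (rows) in the 10 cultivars (columns), coloured by their distance from the gene's mean over the cultivars. AG1 stands out in 549 (7.3) and LA1589 (7.4) and TAGL1 in 572 (4.5). TPI, and AGL11 in most cultivars, lie at background.

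Genes known as direct or candidate targets of RIN in fruit were looked at next. Of 17 such genes, not counting TDR4, 3 rose in LA1589, 3 fell and 11 did not pass, beside 8.58% higher and 6.96% lower over all probe sets. Of the 628 described genes 74 were higher and 47 lower. The list's median difference was -0.35, beside -0.00057 over all probe sets. The higher ones were ACS2, which makes the ethylene precursor (2.53 ± 0.62, adjusted p = 0.00659), Cel2, a cellulase of the cell wall (1.77 ± 0.59, adjusted p = 0.0451), and AAT, which makes aroma esters (1.44 ± 0.16, adjusted p = 7.64e-07). AAT was at background on most arrays of landrace 572, and without that landrace its difference was 0.49 (adjusted p = 0.0406). The lower ones were Man4, an endo-mannanase (-2.81 ± 0.71, adjusted p = 0.00813), E8, a ripening gene (-2.53 ± 0.44, adjusted p = 0.000231), and XYL1, a xylosidase (-1.19 ± 0.30, adjusted p = 0.00837). Among those that did not pass, the difference was -0.36 for ADH2, an alcohol dehydrogenase, -0.65 for PG2, the fruit polygalacturonase, and -0.44 for Psy1, phytoene synthase. Without landrace 560 the Psy1 difference was -0.87 and passed (adjusted p = 0.0230). These values are from the brightest Psy1 probe set. A dimmer one, above background on 30 of 30 arrays, went the other way and did not pass (0.26 ± 0.21, adjusted p = 0.453). In Man4, 1 of the LA1589 arrays and most arrays of landrace 3815 were at background.

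Several of these calls were lost when 1 array was left out. In Man4 the call was also lost with the spiked controls as a covariate (adjusted p = 0.0908). Without replicate 1 of LA1589 3 of the 17 passed and without its replicate 3 only 2 did. ACS2 lost the threshold in both (adjusted p = 0.0730 and 0.0573), as did XYL1 (0.0553 and 0.0834), and Man4 lost it without replicate 3 (0.0638). Cel2 lost it without any 1 of the LA1589 arrays (adjusted p from 0.0919 to 0.159) and without many single landrace arrays. ADH2 passed as lower without replicate 2 of LA1589 (-0.67, adjusted p = 0.0159). With 1 mean per cultivar, or with cultivar as a random effect, 0 of the 17 passed in limma, and 1 and 3 had an unadjusted p under 0.05.

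Among the landraces 14 of the 17 target genes passed the F test, or 82.4% beside 43.8% of all described genes and 39.1% of all probe sets. The exceptions in the main fit were NOR (adjusted p = 0.156), ETR4 (0.155) and EXP1 (0.233). With array weights these passed the F test too (adjusted p = 0.00535, 0.0105 and 0.00157). Leaving out 1 array at a time 12 to 14 of the 17 passed, and over the other settings 10 to 17. PG2 lost its call in 11 of the 27 fits without 1 array. E8 lost it without landrace 3815 (adjusted p = 0.137), and TBG4 with the spiked controls as a covariate (0.195). AAT in 572 and Man4 in 3815 were at background on most of their 3 arrays. With such arrays raised to their background, the highest landraces lay at least 342-fold and 51.4-fold above these. The range was 4.91 for ACS2 and 4.30 for Psy1, or 2.64 on the dimmer Psy1 probe set. Without landrace 572 the range of AAT was 0.35 (adjusted p = 0.732), and the range of Psy1 without 560 was 1.20 (adjusted p = 0.107). Across the 10 cultivar means 7 of the 17 genes had a positive r with RIN and the median r was -0.06, beside 349 of 628 described genes and a median of 0.06. The values ran from -0.78 for E8 and -0.60 for loxC, a lipoxygenase, to 0.50 for ACS2, 0.51 for ETR4, an ethylene receptor, and 0.58 for AAT.

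The landrace low in TDR4, 560, had target genes on both sides. Relative to the other 8 landraces 4 of the 17 were lower in 560 and 4 were higher, beside 10.8% and 11.8% of all probe sets. The median of the list was 0.08. The lower ones were Psy1 (-3.87 ± 0.26, adjusted p = 1.24e-09), XYL1 (-1.45, 0.00152), the ethylene receptor gene ETR3, the Never-ripe gene (-1.28 ± 0.23, 0.000331), and ADH2 (-0.69, 0.00271). On its dimmer probe set Psy1 was lower in 560 by less (-1.90 ± 0.20, limma adjusted p = 1.34e-06). The higher ones were Man4 (3.02, 0.00461), ACS2 (2.19, 0.0137), AAT (1.20, 1.6e-05) and HPL, a hydroperoxide lyase (1.11, 0.0416). For AAT any landrace except 572 exceeds the mean of the other 8, because 572 lowers that mean. Without replicate 1 or 3 of 560 ACS2 lost the threshold (0.0731 and 0.0887), without its replicate 2 ADH2 did (0.0758), and HPL lost it without any 1 of the arrays of 560 (0.0709 to 0.172). With the spiked controls as a covariate HPL in 560 was 0.59 (adjusted p = 0.304), and ACS2 was 2.04 and did not pass (0.0520).

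Ripening regulators outside the MADS-box family included ethylene signalling genes that were higher in LA1589. Of 13 regulators, NOR and ETR3 of the target list among them, 5 rose, 1 fell and 7 did not pass, with a median difference of 0.03, beside the same 8.58% higher and 6.96% lower over all probe sets. The higher ones were EIN2, the central membrane component of ethylene signalling (1.85 ± 0.32, adjusted p = 0.000227), CTR1, a kinase that holds the pathway off (1.13 ± 0.24, 0.00215), and the EIN3-like transcription factors EIL1 (1.004 ± 0.177, 0.000283), EIL4 (0.99 ± 0.24, 0.00518) and EIL3 (0.79 ± 0.18, 0.00396). EIL2 of the same family was lower (-1.04 ± 0.33, 0.0320), and lost the threshold without any 1 of the LA1589 arrays (0.0599 to 0.193). NOR, a NAC-type regulator of ripening, did not pass (-0.35 ± 0.26, 0.434). With 1 mean per cultivar only CTR1 passed of the 13 (adjusted p = 0.0224), and with cultivar as a random effect only EIN2 did (0.0291).

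**Figure D4:**
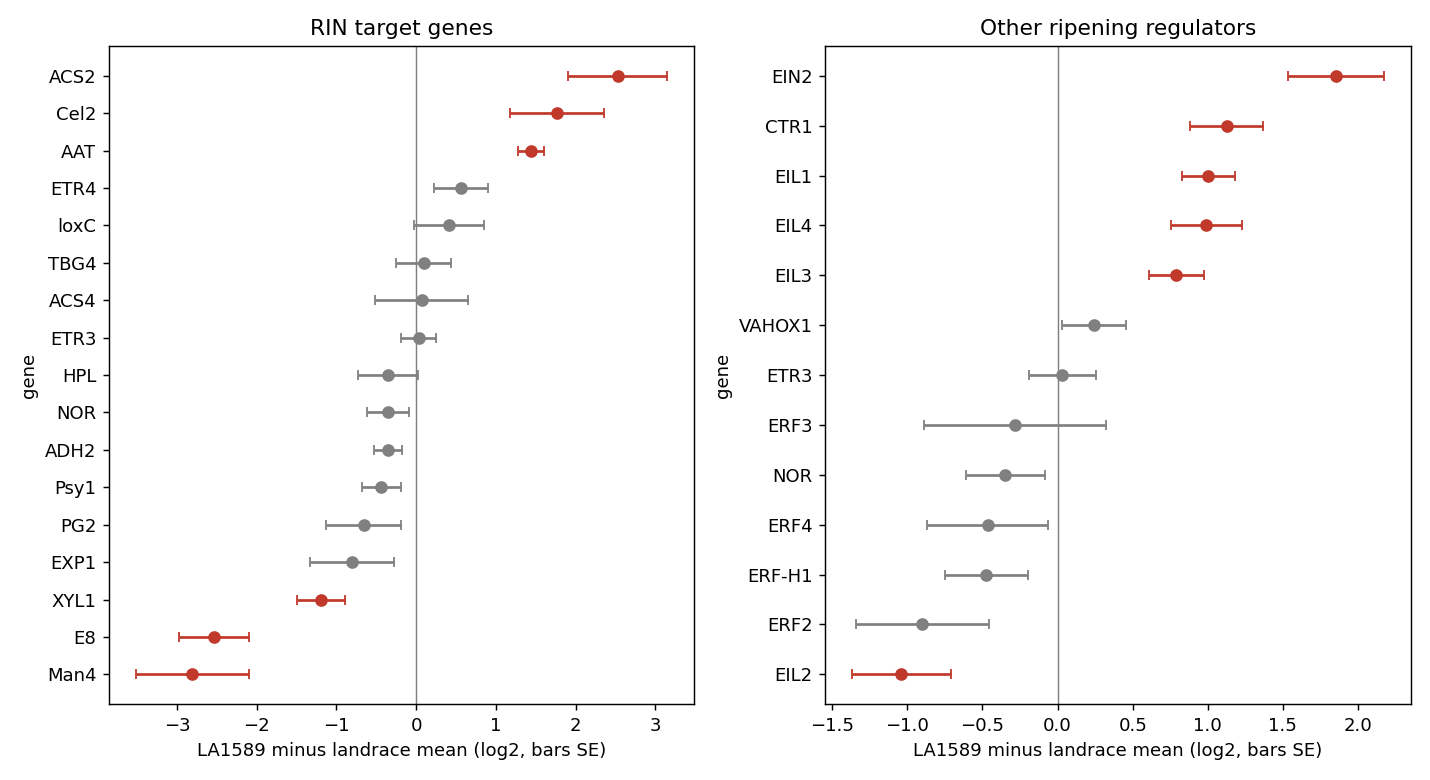
Difference of LA1589 from the mean of the 9 landraces (x axis, log2, bars SE of the limma fit) for 17 RIN target genes (left) and 13 other ripening regulators (right), red where the adjusted p was under 0.05. The targets spread from Man4 (-2.81) to ACS2 (2.53), and EIN2 (1.85) leads the regulators. NOR and ETR3 stand in both panels.

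Among the landraces 9 of these 13 regulators passed the F test (69.2%, beside 39.1% of all probe sets and 43.8% of described genes), with ERF2, an ethylene response factor, widest at 4.17 (from 4.15 ± 0.64 in 560 to 8.31 ± 0.15 in 3836; adjusted p = 9.15e-05). In landrace 560 6 of the 13 were lower than in the other landraces and 0 were higher in limma, beside 10.8% and 11.8% of all probe sets. The list's median was -0.65. They were ERF2 (-2.81 ± 0.41, adjusted p = 4.64e-05), EIL2 (-1.33, 0.00575), ETR3, ERF4 (-1.28, 0.0202), EIL1 (-0.72, 0.00446) and EIL3 (-0.65, 0.0156). Without replicate 2 of 560 EIL1, EIL3 and ERF4 lost the threshold (adjusted p = 0.0812, 0.136 and 0.129). EIL3 also lost it without replicate 1 (0.0869) and with the spiked controls as a covariate (0.0912), and ERF4 without replicate 1 or 3 (0.0644 and 0.0544). Without landrace 560 the F test passed 4 of the 13. The photosynthesis genes PETE (3.12, adjusted p = 0.00192) and PSBR (1.36, 0.000461), 2 of the 3 measured markers of green tissue, were higher in 560. The third, PSBO, had its highest landrace mean (7.33) in 549, the landrace high in AG1. There PETE (7.46) and PSBR (9.43) were second to 560, and none of the 3 passed in 549 against the other 8 landraces. The log2 of the summed green markers ran from 7.15 to 10.65 over the landrace arrays and from 8.46 to 9.45 over those of LA1589. Their part in the result was not tested.

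The described genes whose cultivar means most resembled those of each member were sought among 433 genes above background in at least 5 cultivars. For AG1 these were HRBP1 (r = 0.88 over 10 cultivars and 0.80 over the 9 landraces), the formate dehydrogenase gene FDH (0.88 and 0.79), Fad7, a plastid fatty acid desaturase (0.82 and 0.82), and the chitinase gene CHI14 (0.79 and 0.83). For TDR4 they were PE1, a pectin methylesterase gene (0.86 and 0.62), ACT (0.86 and 0.69), app1 (0.84 and 0.65) and DDB1, whose loss gives high-pigment fruit (0.83 and 0.93). For LeSEP3 they were CHI9, a further chitinase gene (0.85 and 0.75), EIN2 (0.84 and 0.71), NP24-I, an osmotin-like gene (0.83 and 0.73), and FPPS1, a farnesyl diphosphate synthase gene (0.82 and 0.72). For RIN the values were lower, with PMEU1, a pectin methylesterase gene (0.78 and 0.57), MEK1 (0.73 and 0.46), eIF-5A2 (0.71 and 0.49) and EIN2 (0.70 and 0.32). These r values are the highest of 433 over few points that share their arrays. The landrace means of CHI14 ran only from 0.50 to 1.63, those of PMEU1 from 0.50 to 1.83 and those of MEK1 from 1.09 to 2.17. All of these lay inside the span of array backgrounds (0.37 to 2.41). The r of CHI14, PMEU1 and MEK1 over the landraces therefore rests on dim signal.

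**Figure D5:**
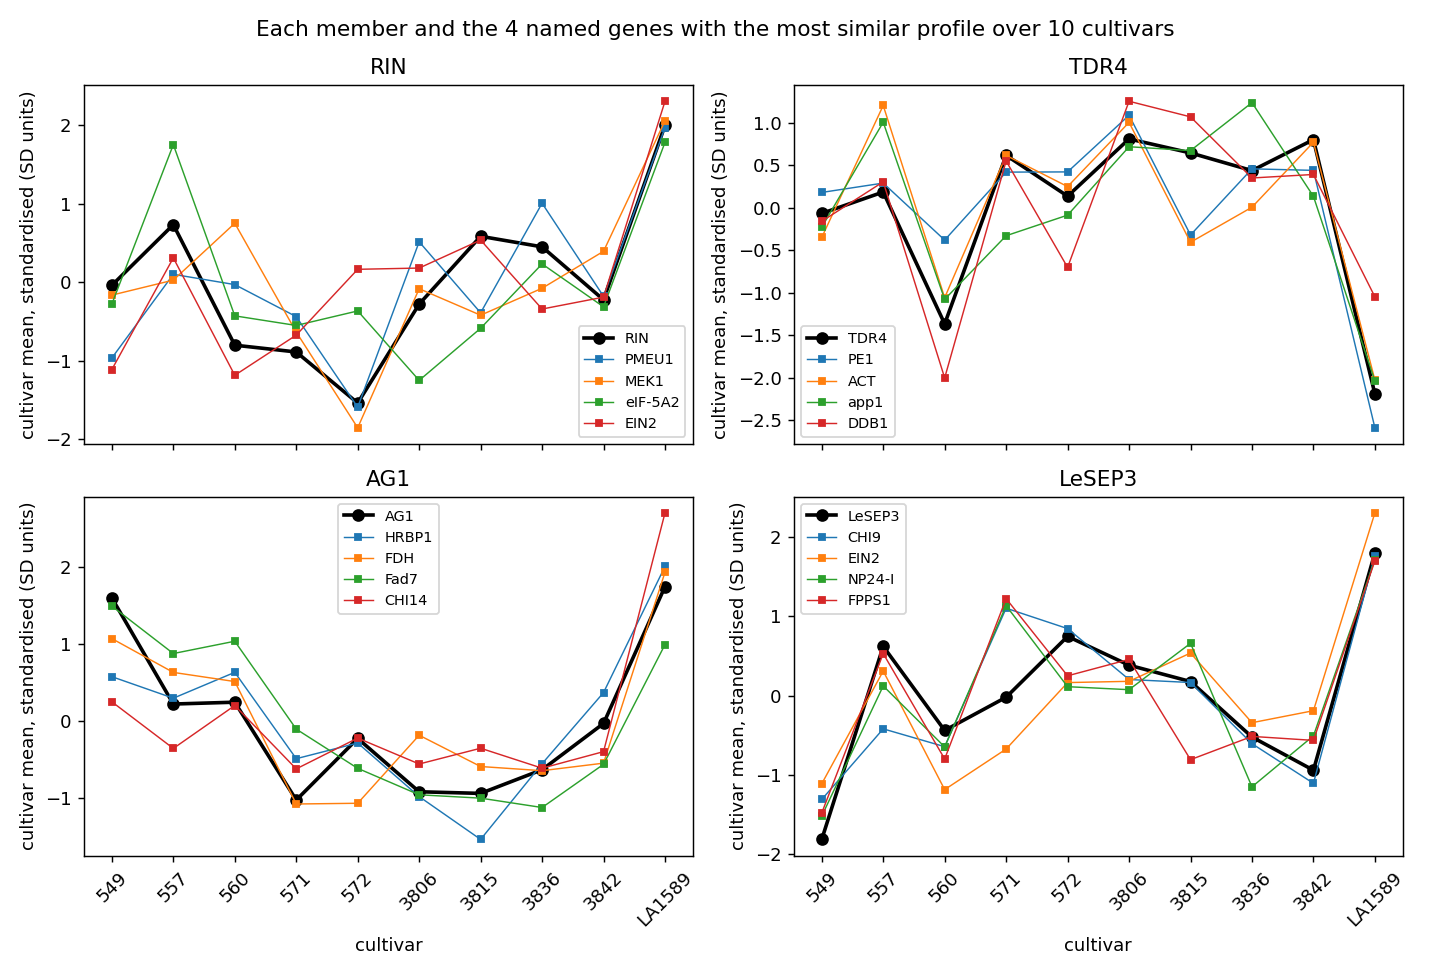
Cultivar means (y axis, in SD units of each gene over the 10 cultivars) of each member (black) and of the 4 described genes with the highest r with it, by cultivar (x axis, lines only guide the eye). All 4 genes of the RIN panel have their highest value in LA1589, all 4 of the AG1 panel lie above their mean in 549, and all 4 of the TDR4 panel lie below their mean in 560. The genes were chosen for their r over these same means, so such likeness comes with the choice.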

How the data were processed

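The authors deposited 1 log2 value per probe set and array (10209 rows, 30 arrays). How these were computed and normalised is not given in the sources used here. Their logarithm was taken as base 2, which no label or header states. The spiked controls rose by a median of 0.84 (0.46 to 1.04) per doubling of their standard amounts. Another base would change the folds and not the tests. Array medians of the deposited log2 values spanned 0.51, above a limit of 0.5, so all values were quantile normalised. The 108 Affymetrix controls and 63 reporter probe sets were left out of the tests. The platform annotation of 2007 named 909 tested probe sets, of which 885 matched the reference gene table.

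limma 3.58.1 in R 4.3.3 was fitted to all 10038 probe sets with a mean for each cultivar, moderated variances and Benjamini-Hochberg adjustment over all of them (20 residual degrees of freedom, and 18 for the landraces alone). The fit was tested on simulated data. A gene with more than 1 probe set was represented by the brightest. Members and lists were chosen with earlier results of these data known. Named genes are the members, the other MADS-box genes, the members of the target and regulator lists with the largest changes or highest signals, and the 4 most similar genes per member. EIL1 and EIL3 beyond 4 examples, NOR, ETR4 and EXP1 as exceptions, TDR6, PETE, PSBR and PSBO were named after their values were seen. On average, samples with the same replicate number did not deviate together (r from -0.28 to 0.36, over 0.1 in 22 of 135 pairs, mean -0.01), so the main fit had no block. That average does not speak for single genes, and with the block TDR4 and LeSEP3 passed the F test among the landraces. Arrays give no counts, and their number limits the precision. The closing section gives the effect of other scalings, filters, priors, weights and error terms.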

Additional observations from a re-analysis of the deposited data

How the results depend on the processing

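Directions of the 4 genes in LA1589 held in all alternatives run. Leaving out 1 array at a time, the difference ran from 0.68 to 0.74 for RIN, from -1.20 to -0.68 for TDR4, from 1.52 to 1.90 for AG1 and from 0.50 to 0.66 for LeSEP3, and the number of probe sets called from 888 (without replicate 1 of LA1589) to 1774, beside 1560. With 1 mean per cultivar and with cultivar as a random effect the differences were the same (0.71, -0.90, 1.68 and 0.60) and none of the 4 passed, while 111 and 228 probe sets did. Among the landraces the range of TDR4 passed with the trend and robust prior (0.80, adjusted p = 0.0409), array weights (0.81, 0.0157) and the replicate block (0.80, 0.0436). It also passed without landrace 3815, 3836, 549, 557 or 572 (0.80, adjusted p from 0.0269 to 0.0498), and without 6 single arrays (range 0.79 to 0.87 over all 27), whereas without landrace 560 it was 0.32 (0.816). The range of LeSEP3 passed with median centring (0.92, 0.0158), array weights (0.60, 0.0180), the replicate block (0.77, 0.0390), without landrace 557 (0.77, 0.0257), and without replicate 3 of 557 (from 0.63 to 1.02 over all arrays left out), whereas without landrace 549 it was 0.51 (0.453). The replicate block changed no other call of the 4 genes in LA1589 or among the landraces. Cel2 in LA1589 lost its call under the block (adjusted p = 0.0533). The range of AG1 without landrace 549 was 1.10. With median centring 7 pairs of cultivars passed for RIN and 11 for LeSEP3, beside 4 and 6, and 6252 probe sets passed the F test, beside 3921. Calls of single landraces over all probe sets, 8053 in all, became 12798 with array weights and 4274 with the spiked controls as a covariate. The cause of these changes was not tested. For no member could another probe set be tried, since each had 1. All 4 genes lay well above background, so dim signal does not limit them.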
